A study of Mus musculus with 2 samples.

Results

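Potassium channel genes were taken as the protein-coding genes of the GENCODE mouse annotation whose symbols begin with Kcn, leaving out Kcnj8 and Kcnj10. This rule gave 92 of 21938 protein-coding genes. They encode the pore-forming subunits of voltage-gated, inward-rectifying, tandem-pore and calcium- or sodium-activated potassium channels, together with the auxiliary subunits that travel with them.

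DNase-seq was used to map open chromatin: DNase I cuts DNA that nucleosomes leave exposed. The tissue was frontal cortex of 25-day-old female B6CASTF1/J mice, the first-generation cross of C57BL/6J with the wild-derived CAST/EiJ strain. A single group held 2 libraries, called replicate 1 and replicate 2 after the labels, with separate biosamples but only 1 donor identifier between them. The spread between libraries is therefore a spread between samples, which may be technical, and no conditions were compared. Whole tissue was used, so a low value can mean that few cells have the site open or that it is weakly open in many, and these cannot be told apart.

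Potassium channels set the resting potential of a neuron, end each action potential and limit how fast the next can follow. In cortex, voltage-gated channels of the Kcna, Kcnc and Kcnd groups shape spikes and dendritic signals, Kcnq channels carry the M current that neuromodulators suppress, and G protein-gated Kcnj channels carry slow inhibition. Other members serve the heart, kidney, inner ear, retina, testis or immune cells. A promoter that is accessible to DNase I is permissive for transcription but is not a measure of it.

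A gene was called open when each library had a peak within 1 kb of any of its annotated transcription start sites (TSS). The value of a peak is the authors' read-depth normalized signal, whose scale is not stated, and the promoter value of a gene is that of its strongest promoter peak. Of the 92 members, 65 were open, which is 70.7%, against 61.5% of all protein-coding genes. A promoter peak was seen in just replicate 1 for 5 members and in just replicate 2 for 4, while 18 had none. The authors' shorter peak list left 51 members open, 55.4%, against 55.6% of all genes, so a higher share among the members was found with the longer list alone. Most promoter values of the family were low. The median over the open members was 1.07, with a range from 0.355 to 7.71, while the median over all 13489 open protein-coding genes was 2.34. Only 6 of the 65 lay above that value.

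The tissue label was checked on marker genes. All 7 excitatory neuron markers were open, Tbr1 with a mean value of 0.871 and Camk2a with 2.35 among them, and so were 4 of 7 inhibitory neuron markers, 3 of 6 astrocyte, 2 of 6 oligodendrocyte, 2 of 6 microglia and 2 of 6 endothelial or mural cell markers. None of 5 liver markers was open, but 1 of 4 choroid plexus markers (Kl) was, and so were 2 of 6 markers of striated muscle and heart. Of the muscle genes, Ckm had 1.99 and 1.32 and Myh7 0.740 and 0.748. Other genes with a like promoter CpG number were open at 57.1% for the excitatory markers, 61.3% for inhibitory and 51.0% for astrocyte markers. This share was 42.7% for oligodendrocyte, 27.1% for microglia and 63.2% for endothelial or mural cell markers. It was 44.5% for choroid plexus, 19.7% for liver and 25.3% for muscle and heart. Only the excitatory set stood far above it, so the other counts say little about the tissue. Open promoters of single markers were thus not confined to genes of cortical cell types. Replicate 2 tended to read higher. Taking log2 of replicate 2 over replicate 1, the median was 0.17 over the open members and 0.15 over all open genes. Its SD was 0.28 over members and 0.31 over all genes.

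The sequences below are stretches of open regions chosen among the members with the highest promoter values or the strongest regions inside introns, where the stretch is free of annotated exons. They are read from GRCm38.p6, the build of mm10, and written 5′ to 3′ on the strand of the gene. Capitals mark bases under the authors' footprints, short stretches protected from cutting, in both libraries. The promoters of Kcnh1 (chr1:192190623-192190772), Kcnc1 (chr7:46422881-46423000), Kcnk13 (chr12:99964361-99964498), Kcnj2 (chr11:111065998-111066147), Kcnh2 (chr5:24351736-24351885) and Kcnq3 (chr15:66286724-66286873) come first.
Kcnh1 promoter: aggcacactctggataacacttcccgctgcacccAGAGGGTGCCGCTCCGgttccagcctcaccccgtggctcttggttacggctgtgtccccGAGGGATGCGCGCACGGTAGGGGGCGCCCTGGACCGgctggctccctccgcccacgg
Kcnc1 promoter: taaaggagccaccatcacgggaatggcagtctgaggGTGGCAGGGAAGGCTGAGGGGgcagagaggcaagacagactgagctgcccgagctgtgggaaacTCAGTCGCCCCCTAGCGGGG
Kcnk13 promoter: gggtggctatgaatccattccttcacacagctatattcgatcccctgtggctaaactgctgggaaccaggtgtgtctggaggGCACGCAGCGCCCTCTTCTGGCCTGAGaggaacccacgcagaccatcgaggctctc
Kcnj2 promoter: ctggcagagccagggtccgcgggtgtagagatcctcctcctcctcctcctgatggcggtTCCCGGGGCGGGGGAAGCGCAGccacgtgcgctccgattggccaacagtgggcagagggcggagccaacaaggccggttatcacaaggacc
Kcnh2 promoter: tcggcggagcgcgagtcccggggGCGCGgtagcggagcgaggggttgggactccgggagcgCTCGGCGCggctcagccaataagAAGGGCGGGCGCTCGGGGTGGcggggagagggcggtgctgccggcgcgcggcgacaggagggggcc
Kcnq3 promoter: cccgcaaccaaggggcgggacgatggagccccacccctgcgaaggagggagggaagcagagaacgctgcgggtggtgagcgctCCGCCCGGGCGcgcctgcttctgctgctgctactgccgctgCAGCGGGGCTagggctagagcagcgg
The intronic regions of Kcnk9 (chr15:72517126-72517275), Kcnip4 (chr5:49090256-49090405), Kcnq3 (chr15:66034016-66034165) and Kcnq1 (chr7:143296616-143296765) follow.
Kcnk9 intron: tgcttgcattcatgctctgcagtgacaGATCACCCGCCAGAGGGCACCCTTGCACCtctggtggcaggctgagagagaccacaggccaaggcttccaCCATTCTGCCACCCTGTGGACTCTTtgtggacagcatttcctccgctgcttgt
Kcnip4 intron: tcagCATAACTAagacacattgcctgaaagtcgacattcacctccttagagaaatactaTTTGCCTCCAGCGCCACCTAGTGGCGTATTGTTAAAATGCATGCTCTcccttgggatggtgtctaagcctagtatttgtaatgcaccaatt
Kcnq3 intron: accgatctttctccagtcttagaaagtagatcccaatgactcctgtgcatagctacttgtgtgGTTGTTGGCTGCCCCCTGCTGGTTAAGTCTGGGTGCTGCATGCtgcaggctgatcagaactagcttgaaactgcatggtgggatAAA
Kcnq1 intron: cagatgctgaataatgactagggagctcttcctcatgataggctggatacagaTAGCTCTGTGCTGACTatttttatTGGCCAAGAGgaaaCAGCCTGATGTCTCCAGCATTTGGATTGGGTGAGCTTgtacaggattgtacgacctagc

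In the promoters of Kcnh1, Kcnc1 and Kcnk13 the protected bases touch 1 of 4 forms of the core recognised by CTCF, the factor that anchors chromatin loops: the letters AGGGGGC and the variants written AGGTGGC, further AGAGGGC and lastly AGATGGC, on either strand. These forms were added after the sequences had been seen. Of all 17 stretches extracted, 4 of 9 promoters and 3 of 8 introns (Kcnk9, Kcnip4 and Kcnq3) had such letters at a shared footprint. The same letters occur within 150 bp centred on the peak in 22.3% of 139 promoter peaks of the family and in 23.2% of all 21727 promoter peaks. For peaks away from promoters these shares were 31.1% of 273 and 33.4% of all 39024. These shares count letters anywhere in the 150 bp and peaks of any value. They are thus no background for the counts at footprints, and no enrichment was measured. Protected bases of Kcnj2, Kcnh2 and Kcnq3 promoters touch GGGCGG, the letters bound by SP and KLF factors. A match describes letters and does not show which protein was bound.

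Promoters of voltage-gated pore subunits were open at 25 of 30 genes, or 83.3%, near the 78.6% of other genes with a like number of CpG dinucleotides at the 5′ end, split into 10 bins. This share is called the CpG-matched share. All 3 Kcnd genes were open (CpG-matched share 77.2%), as were 7 of 8 Kcna (63.9%) and 7 of 8 Kcnh genes (88.5%). With the shorter peak list 4 of the 8 Kcna genes were open. The strongest was Kcnh1, which encodes an ether-a-go-go channel of neurons, with values of 3.23 and 3.89 in replicates 1 and 2 (mean 3.56 ± 0.468, SD, n = 2). Kcnh4 had 2.30 and 3.41. Both genes lay above the median of all open genes by their means, and replicate 2 was the higher library in each.

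Among the Shaw-type genes, whose channels let interneurons fire at high rates, Kcnc1 had 1.75 and 1.89. Kcnc4 had 0.723 and 0.839. Kcnc2 had 0.503 and 0.582. The values of these 3 genes did not overlap, and Kcnc1 was the highest of the 3 in both libraries. This order covers only the Shaw-type genes named here. The stronger promoter peak of Kcnc1 lay at a start site 26183 bp from the annotated 5′ end.

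The Kcna genes, which encode Shaker-type channels of axons and terminals, lay below most open genes, with means from 0.452 to 1.67. Kcna1 led with 1.65 and 1.68. Kcna4 had 1.21 and 1.47. Kcna2 had 0.961 and 0.988. None of the 7 open Kcna genes reached the median of all open genes, and the group's median was 0.962. Kcna3, a channel of lymphocytes and microglia as well as neurons, had 0.978 and 0.925. Kcna6 had 0.876 and 1.03. Kcna7 had 1.19 and 0.737, the widest gap between libraries in the group. Kcna5, known from heart and vascular muscle, was lowest at 0.458 and 0.445, and Kcna10 was not open in either library.

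Kcnb2, a delayed rectifier, had 0.797 and 1.18. Kcnd2, the A-type channel of pyramidal dendrites, had 1.39 and 1.55. Kcnd2 stood above Kcnb2 in both libraries. Kcnd3 had 0.672 and 0.719. Kcnd1 had 0.695 and 0.896. The 2 weaker Kcnd genes overlapped in value, and Kcnd2 stood above them in both libraries.

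Of the ether-a-go-go family, Kcnh2, the delayed rectifier that also repolarises the heart, had 1.80 and 1.81. Kcnh3, a forebrain channel, had 1.30 and 1.57. Kcnh5 had 1.13 and 1.11. Kcnh1 and Kcnh4 were thus the upper pair of the group. Kcnh7 had 0.695 and 0.765. Kcnh8 was the weakest open voltage-gated gene at 0.373 and 0.423. Kcnh6 had a peak of 0.763 in replicate 1 and none in replicate 2.

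Of the Kcnq genes, Kcnq3, an M-current subunit, was open at 1.57 and 1.93, and Kcnq5 at 1.02 and 1.27. Kcnq1, a channel of heart and inner ear, had no promoter peak in either library.

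**Figure D1:**
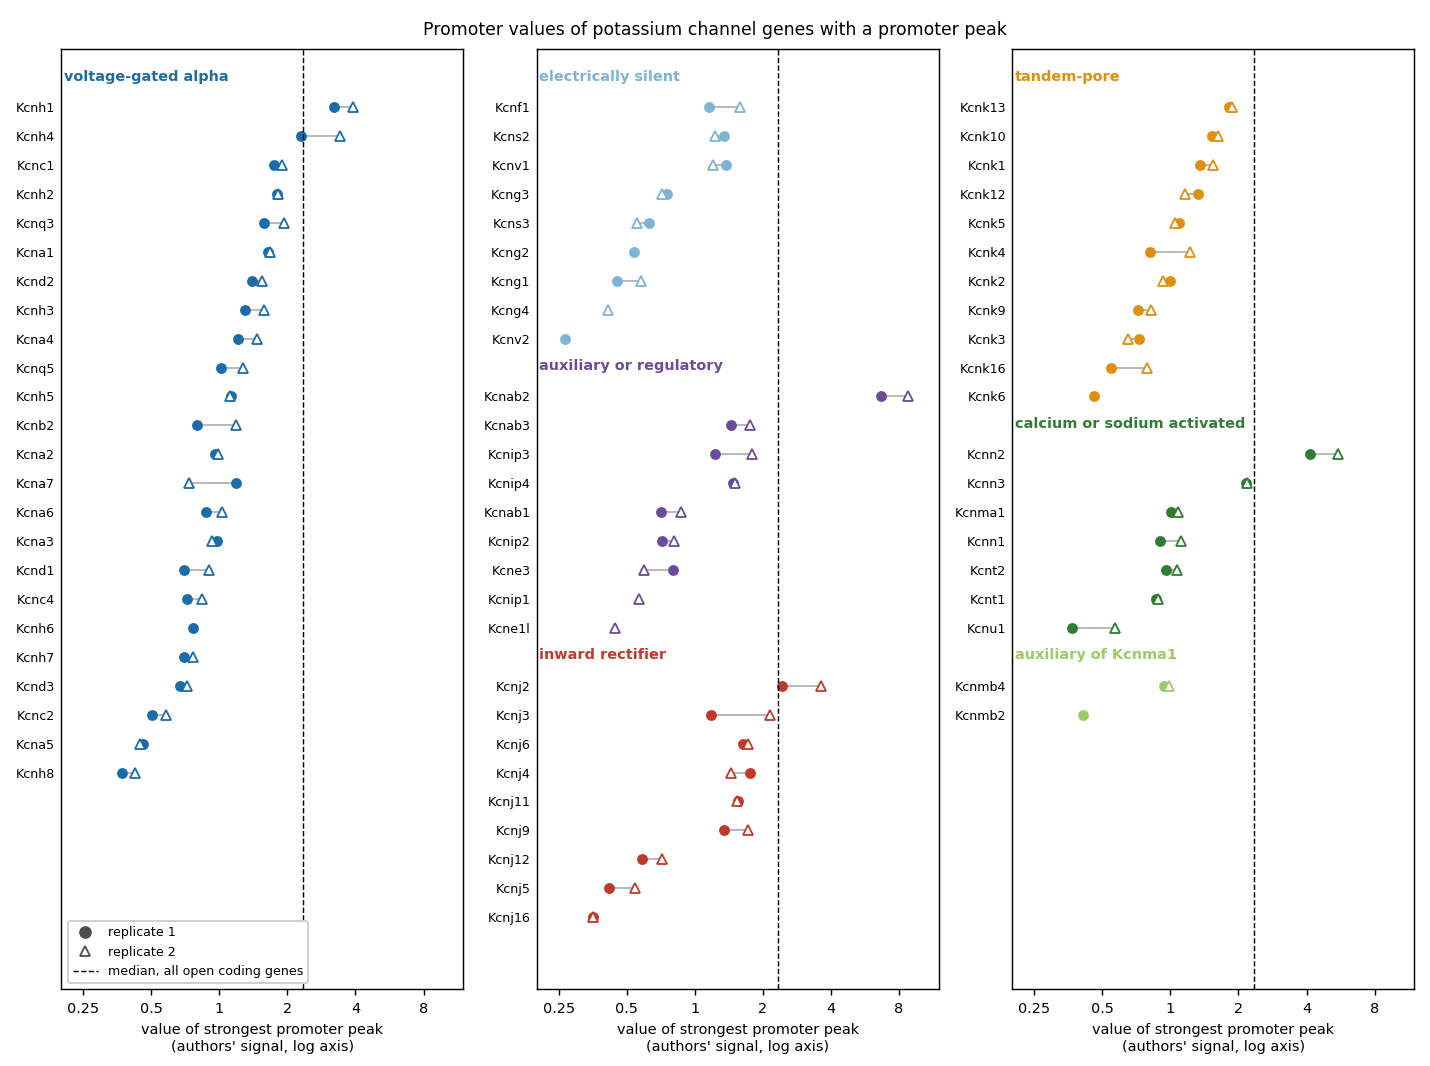
Value of the strongest promoter peak (x axis, authors' signal, log axis) of the members reported with a promoter peak, by functional group. Filled circles are replicate 1, open triangles replicate 2, lines join both libraries, and the dashed line is the median of 2.34 over all open protein-coding genes. Most members lie left of the line, and Kcnab2 and Kcnn2 lie farthest right.

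The electrically silent subunits, which make no channel alone but modify Kcnb channels, had 6 of 10 promoters open (60.0%, CpG-matched share 69.9%). Kcnf1 had 1.16 and 1.59. Kcns2 had 1.34 and 1.23. Kcnv1 had 1.37 and 1.20. These 3, all counted among neuronal genes of cortex, gave overlapping values. Kcng3, the strongest Kcng gene, had 0.757 and 0.714. Kcns3 had 0.627 and 0.554. Kcng1 had 0.452 and 0.577. The remaining open silent subunits were thus lower in both libraries than the first 3. Another 3 members were seen in 1 library: Kcng2 with 0.537 and Kcnv2, a subunit of photoreceptors, with 0.266 in replicate 1, and Kcng4 with 0.411 in replicate 2. Kcns1 was not open in either library although its promoter CpG number of 42 puts it in a bin where 87.5% of other genes were open.

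Auxiliary subunits of voltage-gated channels were open at 7 of 13 genes (53.8%, CpG-matched share 53.9%), and they included the strongest promoter of the family. Kcnab2, a cytoplasmic beta subunit of Kcna channels, had 6.68 and 8.74 (mean 7.71 ± 1.45, SD, n = 2), a mean above that of 99.5% of open protein-coding genes. The same peak lies within 1 kb of a TSS of Nphp4, so its value cannot be assigned to Kcnab2 alone. With peaks shared by another coding promoter left out, Kcnab2 had a mean of 0.75. Its relative Kcnab3 had 1.44 and 1.76. Kcnab1 had 0.712 and 0.868. All 3 beta subunit genes were open (CpG-matched share 85.5%). Among the calcium-binding KChIP subunits that escort Kcnd channels, Kcnip4 had 1.47 and 1.51. Kcnip3 had 1.23 and 1.79. Kcnip2 had 0.718 and 0.805. Kcnip1 had 0.565 in replicate 2 only, so the KChIP genes ranged from an unshared peak to about 1.5.

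Of the 5 Kcne genes, single-span subunits best known from heart and epithelia, only Kcne3 was open, at 0.802 and 0.594. The CpG-matched share for the 5 was 34.0%. Kcne1l had 0.445 in replicate 2 only, and Kcne1, Kcne2 and Kcne4 had no promoter peak. The promoter of Kcnrg was also without a peak. The median CpG number of the Kcne promoters was 14, against 54 for Kcnab.

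Inward rectifiers were open at 9 of 13 genes (69.2%, CpG-matched share 57.1%). Kcnj2, the classical strong rectifier, had 2.42 and 3.62. Among the G protein-gated subunits, Kcnj6 had 1.63 and 1.71, and Kcnj3 had 1.18 and 2.15. Kcnj9, the third neuronal member of that group, had 1.34 and 1.72. The 3 neuronal G protein-gated genes overlapped in value. Kcnj5, their atrial relative, was lower in both libraries at 0.418 and 0.542. Kcnj4, a strong rectifier of forebrain, had 1.75 and 1.44. Kcnj11, the pore of the ATP-sensitive channel, had 1.55 and 1.54. Kcnj12 had 0.582 and 0.714. Kcnj16, a partner of the glial Kcnj10, was the weakest open member of the whole family, at 0.356 and 0.354. The kidney channel gene Kcnj1 and the genes Kcnj13, Kcnj14 and Kcnj15 had no promoter peak.

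Tandem-pore genes, which encode leak channels, were open at 10 of 14 (71.4%, CpG-matched share 73.8%), with means from 0.668 to 1.85. Kcnk13 was highest at 1.82 and 1.88. Kcnk10 had 1.53 and 1.62. Kcnk1 had 1.35 and 1.55. Kcnk13 is a leak channel of microglia, and its values exceeded those of the open microglia markers, Cx3cr1 (0.333 and 0.520) and Trem2 (0.531 and 0.463). Which cells hold the open site was not tested. Kcnk9, an acid-sensitive channel, had 0.718 and 0.817. Kcnk5, known from kidney, had 1.09 and 1.05. Kcnk16, a channel of pancreatic islets, had 0.548 and 0.788. Kcnk6 had 0.458 in replicate 1 only, and Kcnk7, Kcnk15 and the sensory neuron gene Kcnk18 had no promoter peak. The promoters of Kcnk6 and Kcnk15 hold 75 and 73 CpG, numbers at which 93.2% of other genes were open.

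Calcium- and sodium-activated pore subunits were open at 7 of 8 genes (87.5%, CpG-matched share 60.5%). With the shorter peak list 6 of the 8 were open. The matched share counts CpG at the annotated 5′ end, where Kcnma1 has 5 (share in its bin 4.17%). The TSS of its strongest promoter peak has 115, a number at which 95.3% of other genes were open. Kcnn1 went the other way, with 59 and 40. The gap between 87.5% and 60.5% thus depends in part on where CpG were counted. Kcnn2, the SK channel that limits bursts in pyramidal cells, had the second strongest promoter of the family with 4.16 and 5.49 (mean 4.83 ± 0.935, SD, n = 2). At the annotated 5′ end alone its mean was 1.67, and with a window of 2.5 kb that of Kcnn1 was 6.63, so the rank rests on the window and start sites used. Kcnn3 had 2.15 and 2.19. Kcnn1 had 0.904 and 1.11. The 3 neuronal SK genes did not overlap in value, while Kcnn4, the SK relative of blood cells and epithelia, was not open. Kcnma1, the large-conductance channel gated by calcium and voltage, had 1.01 and 1.08. The sodium-activated channel gene Kcnt1 had 0.865 and 0.885. Kcnt2 had 0.955 and 1.07. The testis channel gene Kcnu1 had 0.367 and 0.571. Of the 4 Kcnmb genes, beta subunits of the Kcnma1 channel, only the neuronal Kcnmb4 was open, at 0.938 and 0.988. The CpG-matched share for these 4 was 47.5%. Kcnmb2 had 0.412 in replicate 1 only, and Kcnmb1, the smooth muscle subunit, and Kcnmb3 had no promoter peak.

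The 9 members seen in 1 library had a median value of 0.458, below the 25th percentile of the open members (0.767). Of those named here Kcnv2 was lowest at 0.266 and Kcnh6 highest at 0.763.

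The members were also read against what is known of where they act. Of 37 listed as channels of cortical neurons, 36 were open (97.3%). The mean open share of other genes in the same CpG bins was 81.1%. Of 16 listed as channels known chiefly from other organs or cells, 6 were open (37.5%), against 35.7% of other genes in the same CpG bins. These 6 were Kcne3, Kcnj5, Kcnk5, Kcnk16, Kcnu1 and Kcna5, with values from 0.452 to 1.07. The neuronal list had a median value of 1.40 and the other list 0.574, and both stayed below the 2.34 of all open genes. Both lists were drawn from textbook roles with earlier results of these data known, so the contrast between them is a description and supports nothing. Their median CpG numbers differed (59.0 and 15.0).

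Of 26 genes that work with these channels, 22 were open (84.6%, CpG-matched share 77.1%), with a median value of 1.17. Dlg2, a scaffold that clusters Kcna channels, had 4.96 and 5.97, and Dpp6, an accessory protein of Kcnd channels, had 1.40 and 1.5. Among sodium channel genes (Scn) 8 of 14 were open (57.1%, CpG-matched share 53.9%), with a median of 1.01. Among the pore genes of calcium channels (Cacna1) 9 of 10 were open (90.0%, CpG-matched share 60.8%), with a median of 1.26. The medians of all 3 sets lay below the 2.34 of all open genes, as that of the potassium channel genes did.

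Members whose promoters held few CpG were mostly not open, as was so of other genes. CpG dinucleotides were counted over 1 kb centred on the gene 5′ end, and all protein-coding genes were split into 10 bins by that number. Other genes in the bins of the 92 members were open at 67.5% on average, against the members' 70.7%. With the shorter peak list the members' 55.4% stood below the corresponding 60.4%, so the order of these shares turned with the list. Of the 27 members that were not open, 19 lay in the lower 4 bins. Other genes in these bins were open at 4.17%, 15.3%, 26.4% and 41.8%, so most of them were not open either. The same count over all genes that were not open was not made. In the lowest bin, however, 2 of 2 members were open. Members not open in the upper bins included Kcne1l, Kcng2, Kcnh6, Kcns1, Kcnk6 and Kcnk15. In the bin of Kcnk6 and Kcnk15, 2 of 4 members were open, against 93.2% of other genes.

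The values did not follow CpG content in the same way. In the highest bin, with 93 to 172 CpG, all 12 members were open, yet their median value was 0.866 while that of other open genes was 2.63. The lowest of these 12 was Kcnj12 with a mean of 0.648 and the highest Kcnc1 with 1.82, so none reached the median of its bin. The value of Kcnc1 comes from the distant start site. At its 5′ end, where the CpG were counted, it had 1.22, below the 1.80 of Kcnh2. Over all bins, 12 of 65 open members were above the median of other open genes in their own bin. Kcnab2, Kcnn2, Kcnh1, Kcnj2 and Kcnh4 were among the 6 that exceeded the median of all open genes.

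**Figure D2:**
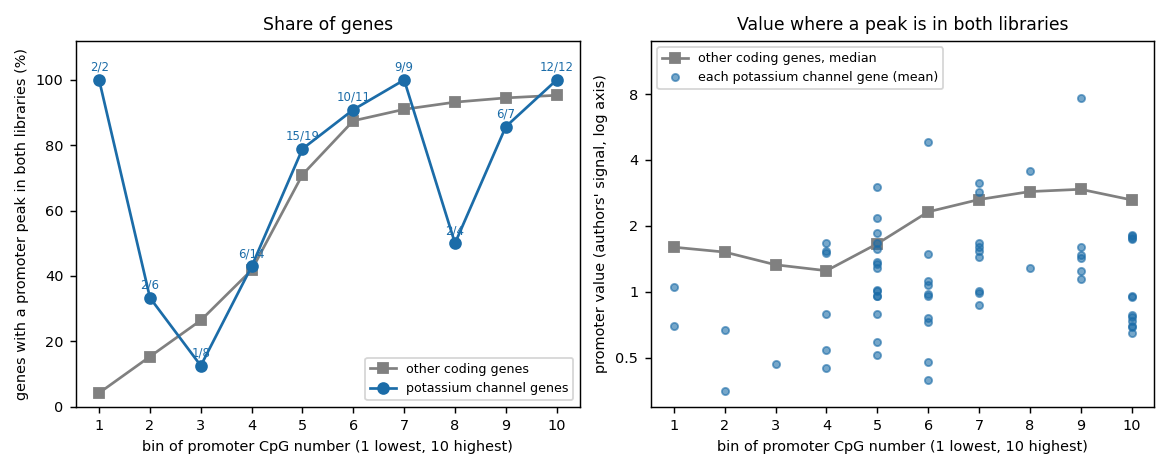
Left, the percent of genes that were open in both libraries (y axis) by bin of CpG number (x axis), for potassium channel genes (blue, with counts) and other protein-coding genes (grey). Right, promoter values of open genes (log axis), with each blue point a member's mean over both libraries and grey squares the median of other genes. In bin 10 all 12 members are open, and each lies below the grey median of 2.63.

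Promoter peaks of the family were as wide as elsewhere. The strongest promoter peak had a median width of 260 bp in replicate 1 and 240 bp in replicate 2, the same as over all open genes. Of the open members, 46.2% in replicate 1 and 43.1% in replicate 2 had at least 3 promoter peaks, against 31.2% and 28.1% of all open genes. In the highest CpG bin the shares were alike, 50% in each library for members against 50.6% and 47.8% for all open genes. This was so although members had a median of 3 annotated TSS and all open genes 5. The centre of the strongest peak lay a median of 46 bp (replicate 1) and 44 bp (replicate 2) upstream of the nearest TSS, and it was upstream in 46 and 44 of 65 members. These positions were not computed over all open genes, so they do not set the family apart.

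For 6 of the 65 open members the promoter peak was found only at a TSS other than the annotated 5′ end. This was not counted over all open genes, so it cannot be read as a trait of the family. The genes below had their strongest promoter peak at another TSS, and some of them, such as Kcnc1 and Kcnn2, also had one at the 5′ end. In Kcnma1 the annotated 5′ end has 5 CpG, while the TSS of its strongest promoter peak, 10366 bp away, has 115. In Kcnk10 the numbers were 30 and 90, at a distance of 3598 bp, and in Kcnk2 they were 30 and 79, at 58441 bp. The reverse was seen in Kcnc1, with 106 CpG at the 5′ end and 20 at the TSS with the stronger peak. The strongest promoter peak of Kcnn2 lay at a TSS 290609 bp from the 5′ end.

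Footprints were present in the strongest promoter peak of 61 of 65 open members in both libraries, against 96.7% of all open genes. The median was 3 footprints per peak in each library. In replicate 1, 27 members had more footprints than the median of promoter peaks in the same decile of value and 31 had fewer. In replicate 2 these numbers were 21 and 22. Kcnq5 held the most, with 14 and 10. The footprint number of the family was thus near that of other promoters of equal value.

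Motif letters were counted in 150 bp centred on the promoter peaks of replicate 1 that overlapped replicate 2, on both strands. CCGGAAG, the core of ETS factors that drive many housekeeping promoters, was in 0 of 139 peaks of the family and in 8.21% of all promoter peaks, or 4.30% of those in the same deciles of value. The CRE letters TGACGTCA were also in 0 of 139, against 2.04% of all, or 0.936% in the same deciles. GGGCGG was in 32.4%, against 42.3% of all and 35.1% in the same deciles. CCAATC was in 5.76%, against 11.1% and 6.62%. TGANTCA, the letters of AP-1, was in 0.719%, or 1 peak, against 2.84% and 3.40%. The CRE share in the same deciles amounts to about 1 peak of 139, so its count of 0 says little. The shares of GGGCGG and CCAATC lay close to those of peaks of like value. In RefSeq promoters of 300 bases, 250 before to 50 after the start (GRCm38.p6), 67 of the 92 members were matched with 92 promoters. Of these, 3.26% held CCGGAAG (Kcnh7, Kcnip2 and Kcnk2), against 11.9% of 20150 promoters, and 47.8% held GGGCGG in both sets. The letters AAGATGGCG of YY1 were in 0 of the 92 and in 1.93% of all.

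Beyond promoters, peaks were counted in each gene body and the 10 kb on either side. In both libraries 88 of 92 members had at least 1, against 78.1% of all genes. This share was not matched on gene length, and the members are longer (median 30.8 kb against 17.4 kb). The median number, averaged over libraries, was 6 per member, and 61 of 92 (66.3%) had more than the median of other protein-coding genes in the same of 20 length bins, against 46.9% of all protein-coding genes. The median was 3 with the shorter peak list and also without the flanks.

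Voltage-gated pore genes had a median of 7.00 peaks and 23 of 30 were above their length-bin median. Calcium- or sodium-activated genes, again grouped with Kcnu1, had a median of 8.50, with 6 of 8 above. The Kcnmb genes were the reverse, with 3 of 4 below. Kcnma1 had the most peaks, 32 in replicate 1 and 37 in replicate 2, where genes of its length had a median of 11.5. Kcnj6 had 18 and 27. Kcnip4, the longest member at 1135 kb, had 16 and 21. Kcnq3 had 14 and 29, and Kcnmb4 had 4 and 35. In Kcnq3 and Kcnmb4 the libraries thus differed by more than in the other 3.

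Per length, the ranking among members of at least 10 kb was another one. Kcnk4 led with 7 and 9 peaks, or 26.2 per 100 kb of gene and flanks. Of its 7 regions in both libraries, however, 1 is its own promoter and the other 6 lie at promoters of neighbouring coding genes. Kcnh4 had 11 and 9 peaks. Kcna2 had 7 and 8, and Kcnj4 had 7 and 10. Kcnd1 had 9 and 4, and its regions in both libraries were its own promoter and 2 at the promoter of a neighbour. Kcnn1 had 7 in each, Kcnk12 had 12 and 11 and Kcnc4 had 7 and 6. Kcnmb4 also fell among the 10 densest, through replicate 2. No peak was found at Kcne4 or Kcnj13 in either library.

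**Figure D3:**
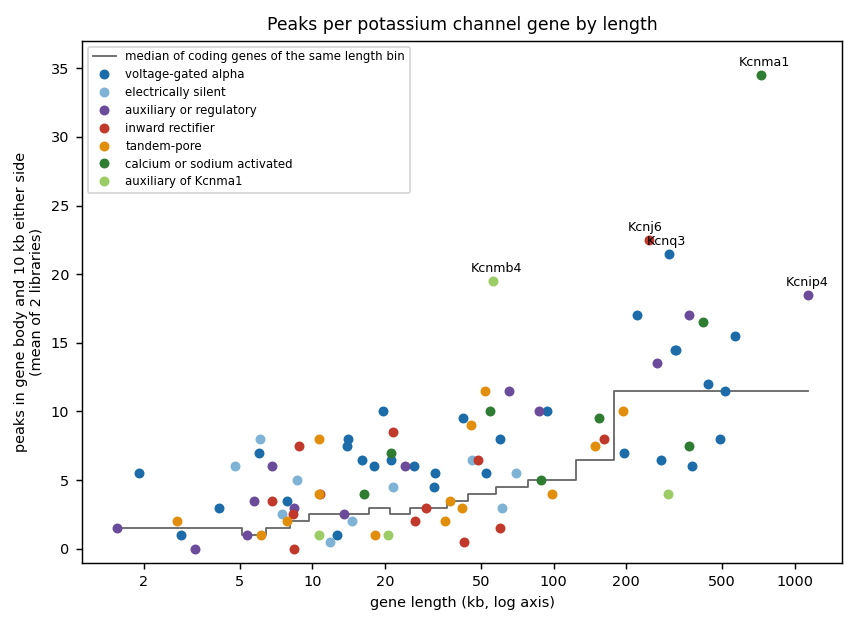
Number of peaks in the gene body and 10 kb either side (y axis, mean of both libraries) against gene length (x axis, kb, log axis), with 1 point per member coloured by group. The grey step line is the median of protein-coding genes in the same length bin, and 61 of 92 members lie above it, Kcnma1 highest at 34.5.

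The peaks of both libraries merged into 826 distinct regions, of which 419 were in both. Introns held 409 regions, and 178 of them (43.5%) were in both libraries. Own promoters held 196, and 123 of them (62.8%) were in both. Counting only regions in both libraries, the median was 4.00 per member and 2.00 over all genes, and 54.3% of members exceeded their length-bin median, against 39.5% of all genes. Kcnma1 again had the most, 25.

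Many members had a stronger open region in an intron, exon or flank than at their own promoter. Of 54 open members with a region away from any coding promoter in both libraries, the region had the higher mean value in 38 (70.4%). Over all protein-coding genes this was 29.3%, and 31.0% over other genes in the members' length bins. Neither share was matched on promoter value. Since the members' promoters were weak (median 1.07 against 2.34), the higher share cannot be read apart from those low values. The region lay in an intron for 18 of the 38, in a flank for 17 and in an exon for 3. In 19 of 54 it was over 1.5 times the promoter value, a count that was not made over all genes. The median value of the strongest such region was 1.44 for members and 1.19 over all genes, a smaller gap than at promoters (1.07 and 2.34). These medians were not matched on gene length, and the members are longer (median 30.8 kb against 17.4 kb for all genes).

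The strongest region away from promoters was 2542 bp upstream of Kcnn1 (chr8:70865661-70865940), with 6.05 and 7.22. The Kcnn1 promoter value of 0.904 and 1.11 is not from the 5′ end beside it. It comes from peaks at an internal TSS, centred 6162 and 6219 bp downstream of the 5′ end. With the shorter list the Kcnn1 promoter had a peak in 1 library only. With a window of 2.5 kb the upstream region counts as the Kcnn1 promoter. Several others lie just outside 1 kb, such as that of Kcnip2. With that window, tried after the data had been seen, the region away from promoters was the stronger in 33 of 50 members (66%), against 28.3% of all genes. Next, apart from a second Kcnn1 flank region at 3.71 and 3.19, was the intronic region of Kcnq1 with 2.88 and 3.80. It lies at the start of Kcnq1ot1, the long noncoding RNA of an imprinted cluster, so the strongest site in this gene is the promoter of another transcript, while the promoter of Kcnq1 itself had no peak. The Kcnk9 intron had 2.85 and 3.34, against 0.718 and 0.817 at the promoter. The Kcnip4 intron had 2.81 and 3.08, 195339 bp from a TSS, and the Kcnq3 intron 1.86 and 2.59. In Kcnk9, Kcnip4 and Kcnq3 both libraries read higher at the intron than at the promoter. An intron of Kcnab2 had 3.02 and 3.19, below its promoter. Distal peaks of replicate 1 that overlapped replicate 2 were also searched where the replicate 1 value was at least 2. They carried the CTCF core forms in 14 of 27 cases (51.9%), against 59.9% of all 2775 such distal peaks.

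**Figure D4:**
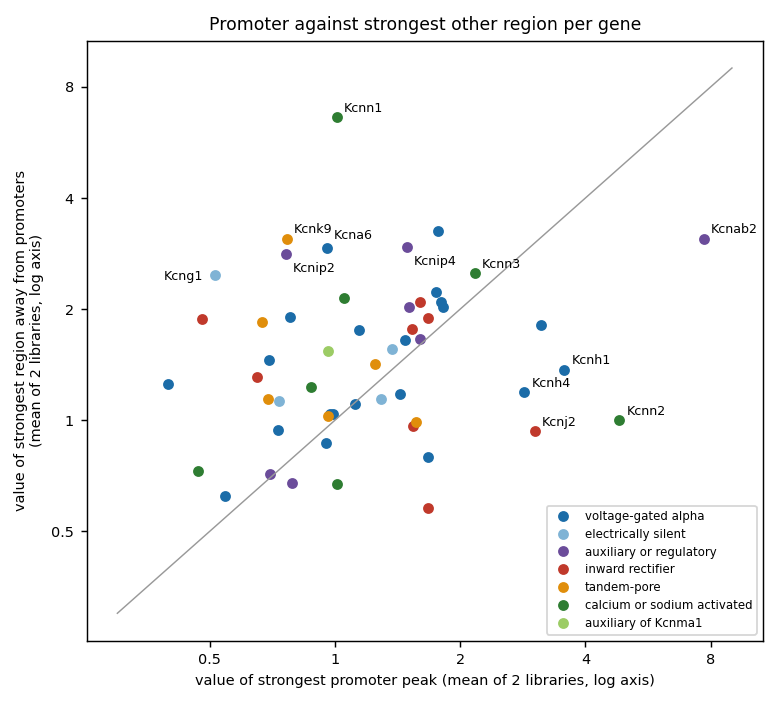
Mean value over both libraries of the strongest region away from coding promoters (y axis, log axis) against that of the strongest promoter peak (x axis, log axis), with 1 point per open member that has both, coloured by group. The diagonal marks equal values. Of 54 members 38 lie above it, Kcnn1 farthest, and Kcnn2, Kcnab2 and Kcnh1 lie below.

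Of the 27 members not open, 20 had a region away from promoters in both libraries, against 34.6% of all such genes and 43.5% of others in the same length bins. Among them were 12 of the 18 with no promoter peak at all, against 31.9% of all such genes and 36.8% in the same length bins. Kcne2 had a flank region of 2.97 and 2.39, Kcnn4 one of 2.85 and 2.11, and Kcnk18 one of 2.67 and 2.01. Kcnip1 had an intronic region of 2.14 and 1.74, above its promoter peak of 0.565 in replicate 2. Which gene such a region acts on was not tested.

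Kcnmb4 showed how far the peak number of a gene can depend on 1 library. Its promoter, at 0.938 and 0.988, and an intronic region, at 1.21 and 1.87, were in both libraries. Replicate 2 had a further run of 30 peaks over 18.7 kb (chr10:116443121-116461780) with a median value of 0.166 and a highest value of 0.417, none of them in replicate 1. Without runs of this kind the median number of peaks per member was still 6, an alternative chosen after these genes had been seen.

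**Figure D5:**
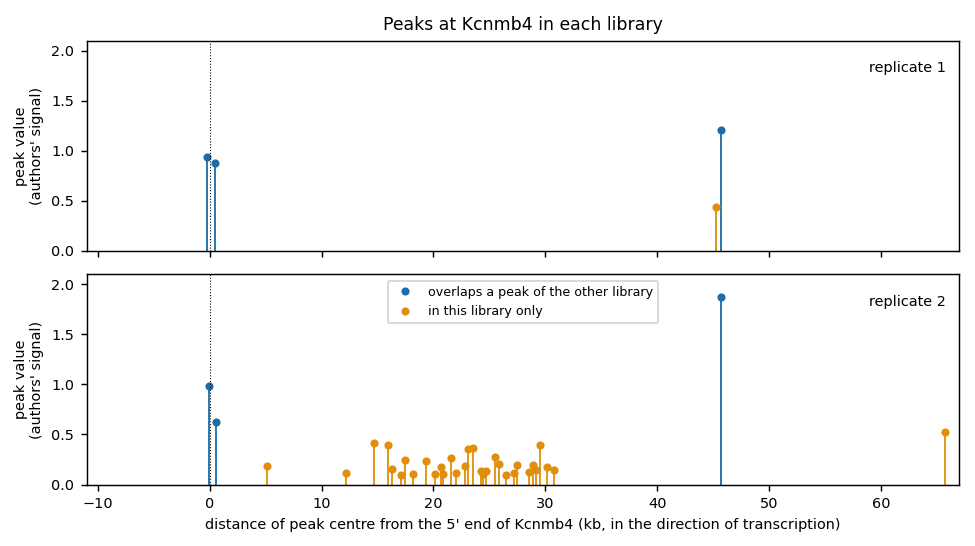
Peaks at Kcnmb4 by distance of the peak centre from the 5′ end (x axis, kb, in the direction of transcription) and value (y axis, authors' signal), replicate 1 above and replicate 2 below. Blue peaks overlap a peak of the other library and orange peaks do not. The orange peaks of replicate 2 between about 12 and 31 kb form the run of 30, all at or under 0.417.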

How the data were processed

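DNase-seq of frontal cortex gave 2 libraries of 1 group. Per the deposited text files, peaks and footprints were derived from each library's own alignment to mm10. Column 7 of the authors' peak lists holds the signal of each peak, normalized to read depth, with no scale stated. To within 0.1 of a step, 100% of values are whole multiples of 1 step (0.00565 and 0.00571), and the median peak holds 111 and 119 steps. The authors' footprint lists carry a constant, 0.01. For the aligner and callers the entry is "not given in the sources used here", and read depth is unknown.

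The longer peak list (85603 and 87847 peaks) was the main list. The reference was GRCm38.p6 with GENCODE vM21, read with pysam 0.24.0, pandas 2.3.3 and numpy 2.4.6. Overlaps needed at least 1 bp. Peaks and windows were counted for all protein-coding genes. Members, lists and motifs were chosen with earlier results of these data known. With 1 group there is no comparison of conditions, so counts and medians are given beside those of all genes, with no test. Values in both libraries were to be given for the 12 strongest promoters, the strongest of each subfamily, members seen in 1 library, the 10 densest members, the 5 with the most peaks, the 3 with the strongest region away from promoters and the known-role lists. Some genes that this rule names are not reported here, though counts and medians include them. The overlap and window functions were tested on simulated data. Sequences are from GRCm38.p6, and RefSeq promoters were matched by symbol.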

Additional observations from a re-analysis of the deposited data

How the results depend on the processing

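The number of open members was 65 and ranged from 51 to 67 over the peak list, window, overlap and strength alternatives that used both libraries. It was 69 to 70 with 1 library left out, where a peak in the other library suffices. The median promoter value of 1.07 moved to 1.37 with the shorter peak list, 1.25 with a window of 2.5 kb and 1.14 at the annotated 5′ end alone, and lay from 1.00 to 1.11 with 1 library left out. Subfamilies open in every member numbered 8. They were 6 with the shorter list, 6 at the annotated 5′ end alone, 7 with a window of 500 bp, 9 with one of 2.5 kb and 9 to 10 with 1 library left out. The open share of other genes in the same CpG bins, 67.5%, moved to 60.4% with the shorter list and to 69.1% to 70.5% with 1 library left out. The median of 6 peaks per member became 3 with the shorter list, 3 without flanks and 10.2 with 50 kb flanks, and stayed at 6 with either library left out. The median of 3.5 footprints, averaged over libraries, fell to 1.5 for footprints of at least 10 bp and was 3 with either library left out. A count added after the data were seen, of members whose strongest region away from promoters exceeded the promoter, was 38 of 54. It became 27 of 40 with the shorter list (67.5%, against 29.9% of all genes), 33 of 50 with a window of 2.5 kb and 39 to 42 with 1 library left out. With the shorter list the median promoter value of all open genes was 2.56, still above the members' 1.37. There Kcna fell from 7 open genes to 4, Kcnj from 9 to 6, Kcnk from 10 to 7 and Kcng from 2 to 0. No paired analysis was possible because there is only 1 group. The unstated scale and unknown read depth limit what can be said of weak peaks, and a missing peak means that none was called.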

Other observations

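Runs of at least 8 peaks present in only 1 library, with gaps of at most 3 kb, occurred at 3 members. Besides Kcnmb4, Kcnq3 had a run of 12 peaks in replicate 2 (chr15:66191821-66196720) with a median value of 0.146. Kcnq1 had a run of 9 peaks in replicate 1 (chr7:143263872-143269540) with a median value of 0.107. Over the genome there were 86 such runs with 1009 peaks in replicate 1, 1.18% of its peaks, and 236 runs with 3363 peaks in replicate 2, 3.83% of its peaks. The medians of these runs had a median of 0.169 and 0.154, against 0.390 and 0.411 for all peaks that overlap none of the other library. The origin of the runs was not tested. The total number of peaks was 14 and 29 in replicates 1 and 2 at Kcnq3, and 20 and 9 at Kcnq1.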
